A study of Homo sapiens with 6 samples.

Results

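The interferon-stimulated genes and sensors described here are 45 genes, listed by symbol and looked up by Ensembl ID among the 16922 genes of the deposited table. All 45 were in the table, and all had a mean of at least 10 normalized counts over the libraries. The table holds RNA-seq of 3 libraries labelled 786-O FOXD1null, a derivative of genotype FOXD1 null, and 3 libraries labelled 786-O, the parental clear cell renal cell carcinoma line. Both lines grew in serum-containing RPMI to 70% confluency, and the labels name no added interferon or other treatment in either line. Libraries were read as pairs of 150 bp, made with an mRNA kit by the labels and described as total RNA libraries in the study's methods. Each line is described as a biological triplicate. The sources used here do not say whether the FOXD1null line is 1 clone, and features of a clone and of the genotype cannot be told apart. The study compared the lines to find genes that act downstream of FOXD1, a forkhead transcription factor.

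Interferons are secreted proteins that bind receptors on the same or neighbouring cells and switch on a large set of genes through the kinases JAK1 and TYK2 and transcription factors that include STAT2 and IRF9. The products include sensors of viral RNA and DNA, enzymes and membrane proteins that block viral growth, the ubiquitin-like modifier ISG15 with its ligases and protease, and regulators that feed back on the receptor. The complex that holds STAT2 and IRF9 binds the interferon-stimulated response element (ISRE), and genes induced by interferon gamma often carry the gamma-activated site (GAS). Many of these genes also keep a basal level in cells without added interferon.

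The element is shown first because it is shared by genes that moved in opposite directions. RefSeq promoters (GRCh38.p14, 250 bases before to 50 bases after the start) could be matched for 34 of the 45 genes. The core of the element, GAAA followed after any 2 bases by a second GAAA, was searched on both strands and was present in 19 of these 34 windows (55.9%), against 3.65% of 27303 promoters of the same length. Each line below gives 30 bases, with the 10 matching bases in capitals.
HERC5, lower, chr4:88457035-88457064, minus strand: agctccagtgGAAAACGAAAcataatgttt
IFI27, lower, chr14:94110618-94110647, minus strand: cattttccagGAAACCGAAActgcagacat
IFIT1, lower, chr10:89392510-89392539, minus strand: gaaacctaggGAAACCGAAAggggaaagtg
IFI44, lower, chr1:78649761-78649790, minus strand: tcagagaaagGAAACTGAAActcagtgtgc
BST2, higher, chr19:17405741-17405770, minus strand: tcctttctggGAAACTGAAActgaaaacct
ISG15, did not pass, chr1:1013380-1013409, plus strand: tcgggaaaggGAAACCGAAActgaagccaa
IFIT3, did not pass, chr10:89327865-89327894, minus strand: gaggaaactgGAAAGTGAAActaatttaaa
OAS3, did not pass, chr12:112938452-112938481, plus strand: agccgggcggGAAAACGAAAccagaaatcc
The 10 letters in capitals are the same in the promoter of IFI44, which was lower in the libraries labelled FOXD1null, and in that of BST2, which was higher. Likewise they are the same in those of IFI27, IFIT1 and ISG15. The search fixes all letters but the 2 between the GAAA stretches, so only those could differ. Where a window held more than 1 match, 1 is printed, and the others can differ. The other match of IFIT1, GAAAGTGAAA, has the letters printed for IFIT3. Those of IFI27 and ISG15 are GAAAATGAAA and GAAAGGGAAA. Of the matched windows, the element was in 1 of 4 for genes that were higher, 7 of 13 for genes that were lower and 11 of 17 for genes that did not pass. The 4 higher genes were IRF1, IFNGR1, IFNGR2 and BST2. No window was matched for USP18, IFNAR2, IRF2 and IFITM2, which were higher, or for IFIT2, OAS2 and OASL, which were lower. The GAS letters TTCNNNGAA were in 8 of the 34 windows (23.5%), against 7.88% of all promoters, with 2 of 4 for genes that were higher (IRF1 and BST2), 3 of 13 for genes that were lower (OAS1, IFI27 and IFI35) and 3 of 17 for genes that did not pass (PARP14, IFITM1 and IRF9). The forkhead letters GTAAACA, a search added after the values were seen, were in 3 windows (8.82%), those of CMPK2, SAMD9L and IFNAR1, against 3.41% of all promoters. A match is a string of letters in a short window and was not tested as a binding site.

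In the libraries labelled FOXD1null, receptors and interferon regulatory factors were higher or did not pass, while the genes that passed among the IFIT family, the oligoadenylate synthetases, the ISG15 ligases and the small induced proteins were lower. Each gene was tested with limma on log2(normalized count + 1) across 16901 genes, and it passed at a Benjamini-Hochberg adjusted p of 0.05 or below. Of the 45 genes, 8 were higher (17.8%), 16 were lower (35.6%) and 21 did not pass. Over all genes tested, 16.3% were higher and 17.1% were lower, so that the share of higher members was near the background and the share of lower members was above it, with no test of that difference. With equal library totals in place of the authors' size factors, 2040 genes were higher and 3878 lower, against 2751 and 2888, and the members divided into 7 higher and 18 lower. In RNA from whole cultures, a change in how many cells express a gene and a change in RNA per cell cannot be told apart. Lower by at least 1 on the log2 scale were 9 members (20.0%), against 5.22% of all genes, and higher by as much was 1 member, USP18, against 3.21%. The median log2 fold change of the members was -0.21, with quartiles of -0.78 and 0.23, and that of all genes was -0.01. In the cumulative plot, the members run left of the curve of all genes over the lower part of its range.

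**Figure D1:**
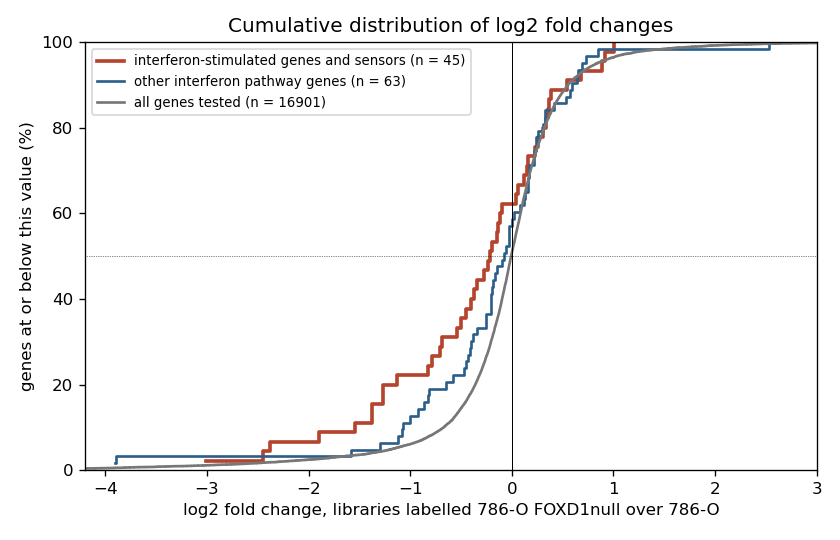
Cumulative share of genes (vertical axis, %) at or below each log2 fold change of the libraries labelled 786-O FOXD1null over 786-O (horizontal axis), for the 45 interferon-stimulated genes and sensors, for 63 other genes of the interferon pathway and for all 16901 genes tested. The curve of the 45 genes crosses 50% at -0.21, that of the other pathway genes at -0.08 and that of all genes at -0.01.

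All 3 libraries of one line lay above all 3 of the other for 30 members, 11 with higher values and 19 with lower values in the libraries labelled FOXD1null. This was so for 24.1% of all genes in the higher and 24.9% in the lower direction. Together this was 49.0% of all genes. For any such gene the two-sided exact permutation test gives p = 0.1, which is the lower limit for 2 groups of 3. The plot by role shows that no receptor and no interferon regulatory factor was among the lower genes and that no sensor, IFIT gene or small induced gene was among the higher ones.

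**Figure D2:**
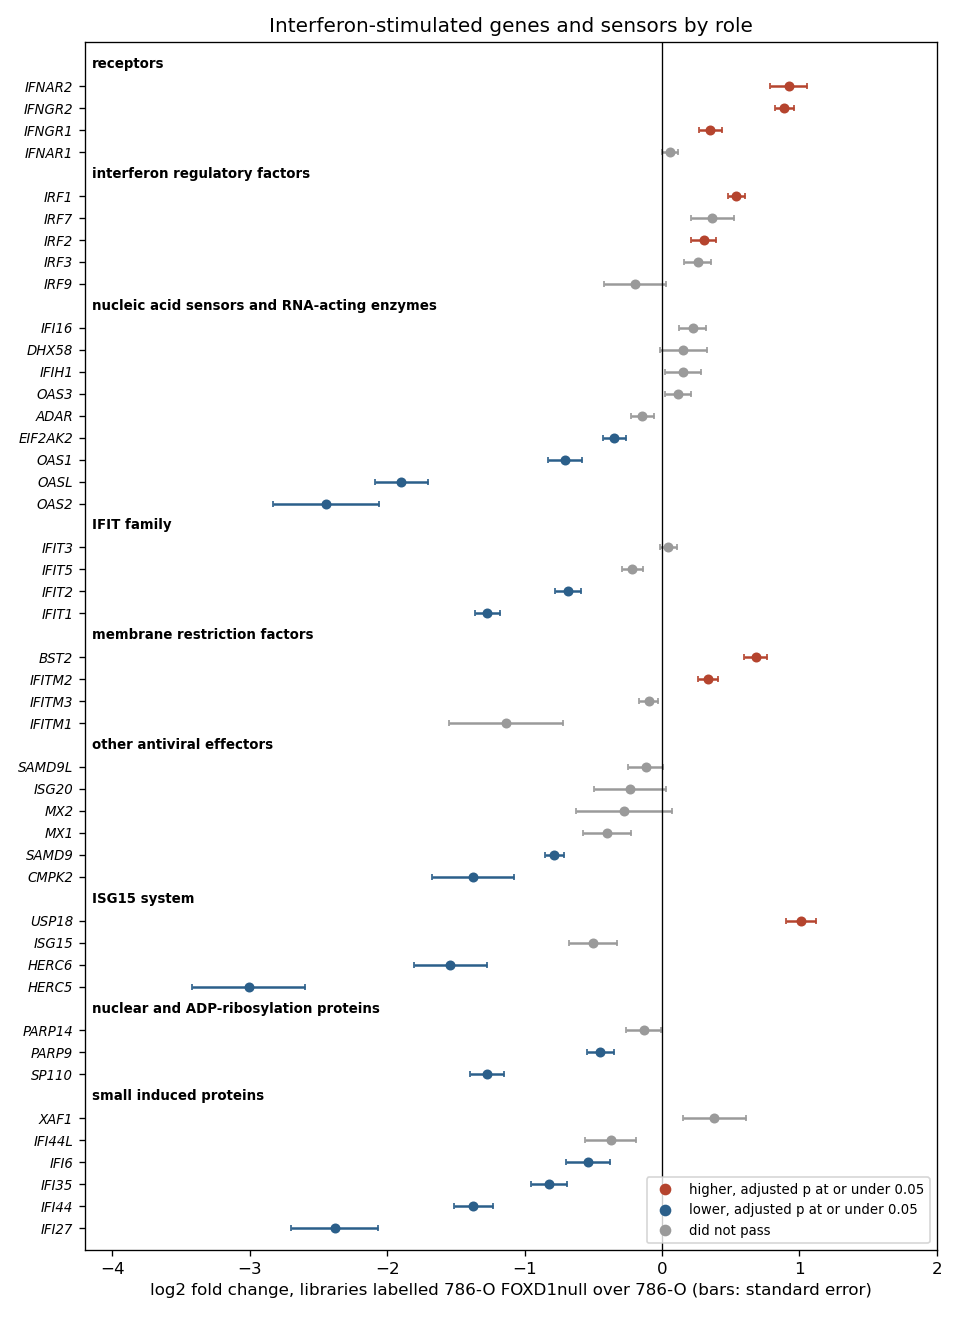
Log2 fold change of the libraries labelled 786-O FOXD1null over 786-O (horizontal axis, with its standard error from limma) for each of the 45 genes, grouped by role, 3 libraries a line. Red genes were higher, blue genes lower and grey genes did not pass; values run from -3.01 for HERC5 to 1.01 for USP18.

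The libraries held 34361770, 36609899 and 37424528 reads in genes for FOXD1null and 30982463, 37733350 and 37843830 for 786-O. FOXD1 RNA itself was higher in the libraries labelled FOXD1null, at 1277, 1048 and 901 normalized counts against 432, 498 and 480 in 786-O (log2 fold change 1.18, SE 0.13, limma adjusted p = 3.9e-04). The label is thus not matched by a loss of the RNA, but the RNA level does not tell whether a working product is made. That was not tested here. The study describes the line as a FOXD1 knockout that it had reported before. Every direction below is given by the label. Of 8 carcinoma and epithelial markers, 7 were in the table, and CA9 was not among its rows. VIM and PAX8 were higher in the libraries labelled FOXD1null (log2 fold changes 0.47 and 0.26), PAX2 was lower (-0.35), and KRT8, KRT18, NDUFA4L2 and EPAS1 did not pass. Of 12 leukocyte markers only CD68 was in the table, at 24.8 to 29.3 normalized counts in the libraries labelled FOXD1null and 21.2 to 31.7 in 786-O, and none of 6 endothelial markers was. For 3 of 6 fibroblast markers the sums were 284 to 434 and 744 to 883, for the libraries labelled FOXD1null and for 786-O. Of 8 hepatocyte markers 6 were in the table. SERPINA1 took most of their counts, at 8171 to 9024 in the libraries labelled FOXD1null and 2671 to 3153 in 786-O, and FGA, FGB, FGG, ALB and APOH were each highest in 786-O replicate 2. Whether these differences have a part in those of the members was not tested.

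FOXD1null replicate 1 and 786-O replicate 2 stood apart from the other libraries. The summed normalized counts of 5 cardiomyocyte genes were 369, 2.02 and 1.94 in FOXD1null replicates 1, 2 and 3, against 1.12, 4298 and 56.1 in 786-O replicates 1, 2 and 3. In addition, 10 genes had at least 200 normalized counts in every 786-O library and at most 1% of the 786-O mean in FOXD1null replicates 2 and 3. In FOXD1null replicate 1 these genes stood at 17.1% to 23.0% of the 786-O mean (median 19.4%). Among the 16 members that were lower, the excess of FOXD1null replicate 1 over the mean of replicates 2 and 3 ran from -84.1% (EIF2AK2) to 73.4% (IFI6) of the difference to 786-O. It was 20.5% for HERC5, 20.8% for IFI27 and 18.1% for IFI44. All other lower members lay outside 17.1% to 23.0%, such as SAMD9 at -7.6%, IFIT1 at 10.7% and HERC6 at 33.9%. What set this library apart was not tested.

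Receptor subunits were higher in the libraries labelled FOXD1null for 3 of 4 genes, with no overlap between the lines for any of the 4. Of all genes tested, 16.3% were higher, and for 24.1% all FOXD1null libraries lay above all 786-O libraries. IFNAR2, the chain of the type I interferon receptor that binds the ligand first, had 1550, 2205 and 2147 normalized counts in the libraries labelled FOXD1null, against 955, 1066 and 1059 in 786-O. Its mean was 1967 ± 363 against 1027 ± 62.0 in 786-O (SD, n = 3 libraries a line), a log2 fold change of 0.92 (SE 0.13, limma adjusted p = 0.0014). FOXD1null replicate 1 was the lowest of its line and still lay above every 786-O library. IFNGR2, the chain of the type II (interferon gamma) receptor that recruits JAK2, had 2203, 2403 and 2364 normalized counts in the libraries labelled FOXD1null and 1183, 1297 and 1276 in 786-O, with a log2 fold change of 0.89 (SE 0.07, limma adjusted p = 9.9e-05). IFNGR1, its ligand-binding partner, had 1062, 1090 and 1115 normalized counts in the libraries labelled FOXD1null and 838, 936 and 789 in 786-O (log2 fold change 0.35, SE 0.08, limma adjusted p = 0.012). That call was lost without 786-O replicate 1 (limma adjusted p = 0.057) or replicate 3 (limma adjusted p = 0.067). The 9 tested genes within 1000000 bp of IFNGR1 had a median log2 fold change of 0.49, with 4 higher and 1 lower. IFNAR1, the second chain of the type I receptor, had 2615, 2687 and 2704 normalized counts in the libraries labelled FOXD1null and 2482, 2598 and 2613 in 786-O. Its libraries of the 2 lines lay next to each other without overlap, and the log2 fold change of 0.06, which was -0.03 with equal library totals, did not pass (limma adjusted p = 0.51).

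IFNAR1, IFNAR2 and IFNGR2 lie near each other on chromosome 21 (hg38, GENCODE release 44), in the order IFNAR2 (33205282 to 33265675), IFNAR1 (33324387 to 33359864) and IFNGR2 (33403413 to 33479348). Among the 18 to 21 tested genes within 1000000 bp of each, median log2 fold changes were 0.12 to 0.13. IL10RB, which lies between IFNAR2 and IFNAR1, did not pass either (log2 fold change 0.16, limma adjusted p = 0.099). Exons of IFNAR2 share 13.0% of their bases with the antisense transcript IL10RB-DT, and those of IFNGR2 share 380 bases with TMEM50B on the other strand. On the same strand, exons of IFNAR2 share 14.7% of their bases with IFNAR2-IL10RB. The sources used here do not say whether reads were counted by strand, and reads from these overlaps cannot be told apart.

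Of the 5 interferon regulatory factors, IRF1 and IRF2 had higher RNA in the libraries labelled FOXD1null, and the other 3 did not pass. Of all genes tested, 16.3% were higher. IRF1, a transcription factor induced by interferon gamma, had 2768, 2806 and 2643 normalized counts in the libraries labelled FOXD1null, against 1807, 1952 and 1886 in 786-O. The lines were far apart against the spread within each, and the log2 fold change was 0.54 (SE 0.06, limma adjusted p = 5.5e-04). Its exons share 22.9% of their bases with the antisense gene IRF1-AS1. IRF2, which binds the same element and can oppose IRF1, had 622, 735 and 696 normalized counts in the libraries labelled FOXD1null and 531, 586 and 541 in 786-O (log2 fold change 0.31, SE 0.09, limma adjusted p = 0.032). This call was lost when any library other than FOXD1null replicate 1 was left out, with limma adjusted p of 0.056 to 0.12, and with equal library totals.

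IRF3, which is present before infection and switches on interferon beta, had 2906, 2246 and 2311 normalized counts in the libraries labelled FOXD1null and 2026, 2108 and 2062 in 786-O. All FOXD1null values lay above those of 786-O, but replicate 1 was well above the other two and the difference did not pass (log2 fold change 0.26, SE 0.10, limma adjusted p = 0.084). Its exons share 19.3% of their bases with BCL2L12 on the other strand. IRF7, the interferon-induced factor that amplifies interferon alpha production, had 161, 210 and 232 normalized counts in the libraries labelled FOXD1null and 167, 157 and 139 in 786-O (log2 fold change 0.37, limma adjusted p = 0.11). Here FOXD1null replicate 1 lay within the 786-O range while replicates 2 and 3 lay above it. IRF9, the DNA-binding partner of STAT2, had 34.5, 53.6 and 59.2 normalized counts in the libraries labelled FOXD1null and 59.1, 51.7 and 54.3 in 786-O, with overlap of the lines (log2 fold change -0.20, limma adjusted p = 0.56). Its exons share 23.9% of their bases with ENSG00000259529, a protein-coding gene on the same strand.

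Among the 9 sensors and RNA-acting enzymes, 4 were lower in the libraries labelled FOXD1null, none was higher and 5 did not pass. Of all genes tested, 17.1% were lower and 16.3% higher. The oligoadenylate synthetases are activated by double-stranded RNA and make the signal that switches on RNase L. OAS1 had 85.2, 92.0 and 85.5 normalized counts in the libraries labelled FOXD1null and 140, 134 and 157 in 786-O (log2 fold change -0.71, SE 0.13, limma adjusted p = 0.0036). OAS2 had 3.23, 3.03 and 3.88 normalized counts in the libraries labelled FOXD1null and 32.4, 20.9 and 17.5 in 786-O (log2 fold change -2.45, SE 0.38, limma adjusted p = 0.0020), a gene at a handful of reads in one line. Without 786-O replicate 1 its mean was under 10 and it was not tested. OAS3 lies between OAS1 and OAS2 on chromosome 12. It had 3055, 3950 and 3689 normalized counts in the libraries labelled FOXD1null and 3262, 3274 and 3256 in 786-O. Its log2 fold change of 0.12 did not pass (limma adjusted p = 0.38). Without FOXD1null replicate 1 it was 0.23 and passed (limma adjusted p = 2.7e-04). Whether OAS3 differed from OAS1 or OAS2 was not tested.

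OASL, an OAS-like protein that in human cells lacks synthetase activity and enhances RNA sensing, had 43.1, 27.3 and 31.1 normalized counts in the libraries labelled FOXD1null and 127, 119 and 133 in 786-O. All 3 FOXD1null values were far under the lowest 786-O value, and the log2 fold change was -1.90 (SE 0.20, limma adjusted p = 3.0e-04). Per kb of merged exons, OAS3 averaged 198 normalized counts in the libraries labelled FOXD1null and 181 in 786-O, and the other 3 averaged 0.301 to 6.72 and 2.10 to 20.0. The member of this family with the largest level therefore did not pass, and the 3 at low level were lower in the libraries labelled FOXD1null.

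EIF2AK2, the kinase PKR that halts translation on binding double-stranded RNA, had 3415, 4052 and 4131 normalized counts in the libraries labelled FOXD1null and 4817, 4908 and 4965 in 786-O (log2 fold change -0.35, SE 0.08, limma adjusted p = 0.013). The lines did not overlap, but the call was lost without 786-O replicate 1, 2 or 3, at limma adjusted p of 0.051 to 0.063. IFIH1, the cytoplasmic RNA sensor MDA5, had 448, 654 and 577 normalized counts in the libraries labelled FOXD1null and 507, 495 and 489 in 786-O (log2 fold change 0.15, limma adjusted p = 0.42). DHX58, the related protein LGP2, had 211, 334 and 296 normalized counts in the libraries labelled FOXD1null and 257, 263 and 224 in 786-O (log2 fold change 0.16, limma adjusted p = 0.53). For both RNA sensors, FOXD1null replicate 1 was the lowest of all 6 libraries, and replicates 2 and 3 were the highest. IFI16, a sensor of DNA, had 1753, 2163 and 2104 normalized counts in the libraries labelled FOXD1null and 1661, 1853 and 1623 in 786-O (log2 fold change 0.23, limma adjusted p = 0.12). ADAR, which edits adenosine to inosine in double-stranded RNA, had 10900, 13307 and 12786 normalized counts in the libraries labelled FOXD1null and 13879, 13081 and 13747 in 786-O (log2 fold change -0.14, limma adjusted p = 0.23), with overlap of the lines.

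The IFIT genes are neighbours on chromosome 10 whose proteins bind foreign RNA and block its translation. Of these 4 genes, 2 were lower, against 17.1% of all genes tested, and 2 did not pass. Whether they differed from each other was not tested. IFIT1 (ENSG00000185745, chromosome 10, 89392546 to 89406487), which recognizes the cap of viral RNA, had 446, 372 and 394 normalized counts in the libraries labelled FOXD1null, against 954, 989 and 980 in 786-O. This was the largest difference in the family, with a log2 fold change of -1.27 (SE 0.09, limma adjusted p = 5.9e-05). IFIT2 had 403, 366 and 389 normalized counts in the libraries labelled FOXD1null and 562, 649 and 652 in 786-O (log2 fold change -0.68, SE 0.09, limma adjusted p = 0.0010). IFIT3, which lies between IFIT2 and IFIT1 and whose protein stabilizes IFIT1, had 1830, 1747 and 1748 normalized counts in the libraries labelled FOXD1null and 1707, 1733 and 1718 in 786-O. Its lines differed by little, with a log2 fold change of 0.05 (limma adjusted p = 0.62) that was -0.05 with equal library totals. Its promoter holds the element, as that of IFIT1 does. IFIT5 had 743, 677 and 756 normalized counts in the libraries labelled FOXD1null and 822, 876 and 825 in 786-O (log2 fold change -0.21, limma adjusted p = 0.066). The 8 tested neighbours outside the family within 1000000 bp had a median log2 fold change of 0.12, with 4 higher and 3 lower.

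**Figure D3:**
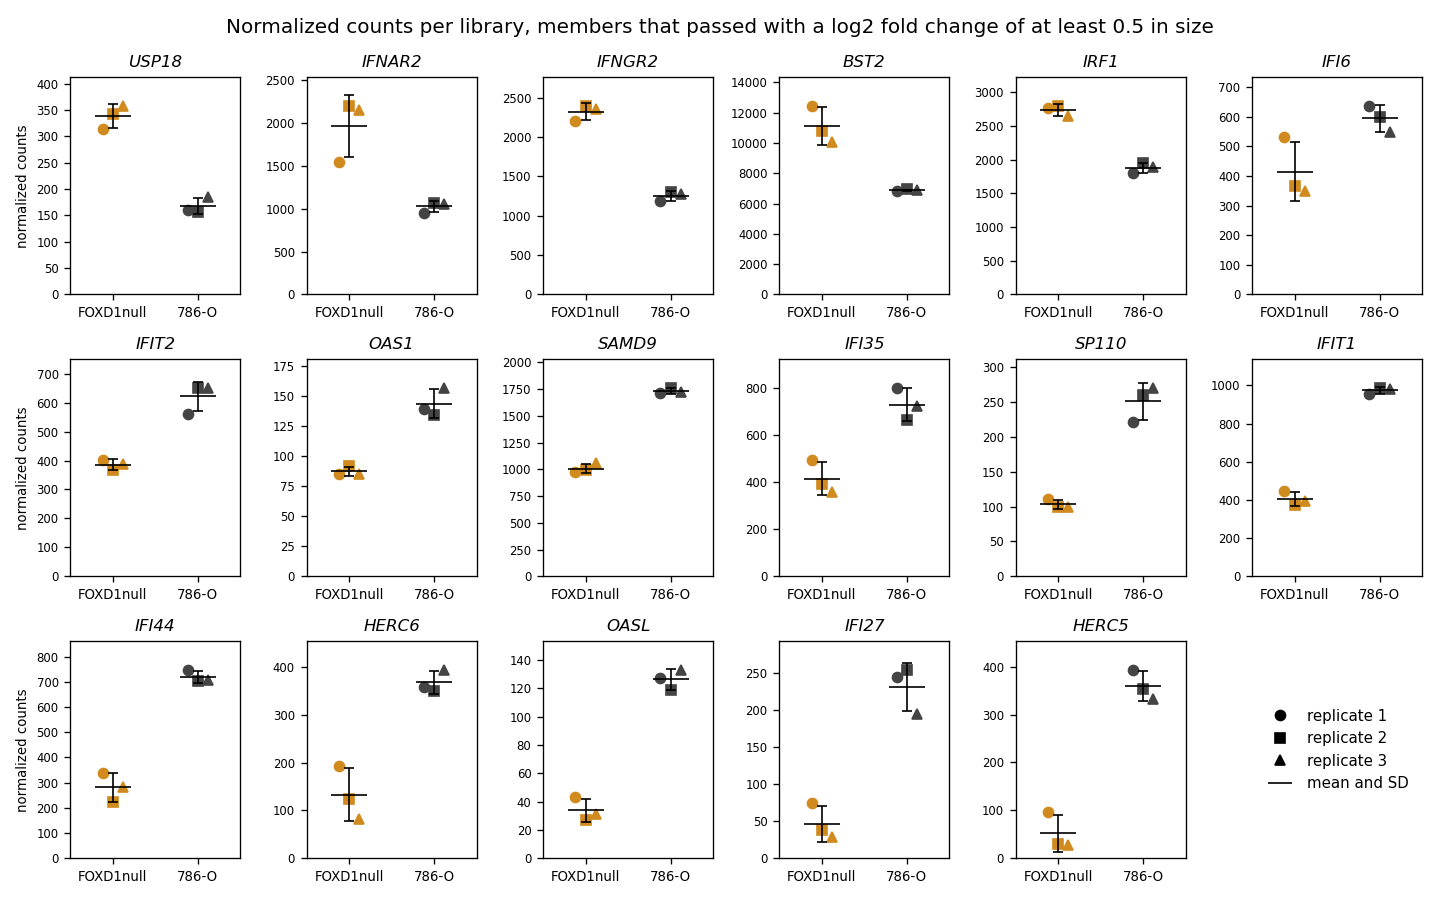
Normalized counts (vertical axes, each from 0) in each library labelled 786-O FOXD1null (left, orange) and 786-O (right, black) for the 17 members that passed, changed by 0.5 or more on the log2 scale and had a mean of at least 50, ordered from USP18 (1.01) to HERC5 (-3.01). Symbols mark the replicate and bars the mean and SD of 3 libraries; in every panel the 3 values of one line lie apart from the 3 of the other.

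The ISG15 system contained both ends of the range. ISG15 is attached to proteins by HERC5 in human cells and removed by USP18, which also binds IFNAR2 and damps type I interferon signalling. HERC5 (ENSG00000138646, chromosome 4, 88457119 to 88506163) had 97.0, 30.3 and 28.2 normalized counts in the libraries labelled FOXD1null, against 394, 353 and 333 in 786-O. Its mean was 51.8 ± 39.1 against 360 ± 31.1 in 786-O (SD, n = 3 libraries a line), and the log2 fold change of -3.01 (SE 0.41, limma adjusted p = 0.0011) was the lowest among the members. Without FOXD1null replicate 1, which held over 3 times the counts of the other 2, it was -3.57 (limma adjusted p = 3.5e-12). HERC6, a neighbouring gene of the same family and the main ISG15 ligase in mice, had 193, 124 and 82.5 normalized counts in the libraries labelled FOXD1null and 358, 350 and 395 in 786-O (log2 fold change -1.54, SE 0.26, limma adjusted p = 0.0030). The 12 tested neighbours of HERC5 had a median log2 fold change of -0.07, with 3 lower and 1 higher.

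USP18 (ENSG00000184979, chromosome 22, 18150118 to 18177397) went the other way, with 314, 342 and 358 normalized counts in the libraries labelled FOXD1null and 161, 157 and 185 in 786-O. Its mean was 338 ± 22.6 against 167 ± 15.2 in 786-O (SD, n = 3 libraries a line), a log2 fold change of 1.01 (SE 0.11, limma adjusted p = 3.7e-04), the highest among the members. ISG15 itself had 1188, 769 and 700 normalized counts in the libraries labelled FOXD1null and 1245, 1241 and 1176 in 786-O, so that replicate 1 lay within the 786-O range and replicates 2 and 3 lay well under it. The log2 fold change of -0.50 (SE 0.18) did not pass (limma adjusted p = 0.060). Without FOXD1null replicate 1 it was -0.73 and passed (limma adjusted p = 4.1e-08).

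The small induced proteins were lower in the libraries labelled FOXD1null for 4 of 6 genes, against 17.1% of all genes tested. IFI27 (ENSG00000165949, chromosome 14, 94104836 to 94116695), a membrane protein strongly induced by type I interferon, had 74.4, 38.4 and 28.2 normalized counts in the libraries labelled FOXD1null, against 244, 255 and 194 in 786-O. The log2 fold change was -2.38 (SE 0.32, limma adjusted p = 9.4e-04), and the highest FOXD1null value lay under the lowest 786-O value. IFI44, a cytoplasmic protein with antiviral activity, had 337, 223 and 283 normalized counts in the libraries labelled FOXD1null and 749, 704 and 706 in 786-O (log2 fold change -1.37, SE 0.14, limma adjusted p = 3.1e-04). Its neighbour and paralog IFI44L had 89.5, 128 and 137 normalized counts in the libraries labelled FOXD1null and 147, 175 and 133 in 786-O, and it did not pass (log2 fold change -0.37, limma adjusted p = 0.16). IFI44 was thus lower and its neighbour overlapped between the lines. Whether IFI44 and IFI44L differed from each other was not tested. IFI35, which binds the related protein NMI, had 494, 392 and 359 normalized counts in the libraries labelled FOXD1null and 804, 664 and 726 in 786-O (log2 fold change -0.82, SE 0.13, limma adjusted p = 0.0022). Around IFI35 on chromosome 17, 22 of 52 tested genes were also lower, with a median log2 fold change of -0.37.

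IFI6, which protects cells from death and blocks flavivirus growth, had 531, 366 and 349 normalized counts in the libraries labelled FOXD1null and 638, 598 and 547 in 786-O (log2 fold change -0.54, SE 0.16, limma adjusted p = 0.031). This call was lost when any library other than FOXD1null replicate 1 was left out, at limma adjusted p of 0.062 to 0.12. XAF1, which counters the apoptosis inhibitor XIAP, had 103, 185 and 187 normalized counts in the libraries labelled FOXD1null and 116, 131 and 107 in 786-O (log2 fold change 0.38, limma adjusted p = 0.24). Around it on chromosome 17, 33 of 51 tested genes were lower and none was higher, with a median log2 fold change of -0.54, against 0.38 for XAF1. Its exons share 38.3% of their bases with the transcript PRAL on the other strand.

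Among the membrane restriction factors, 2 of 4 genes were higher and none was lower, against 16.3% and 17.1% of all genes tested. BST2 (tetherin; ENSG00000130303, chromosome 19, 17402939 to 17405630), which tethers budding virus to its host cell, had 12476, 10812 and 10035 normalized counts in the libraries labelled FOXD1null, against 6848, 6927 and 6880 in 786-O. Its log2 fold change was 0.68 (SE 0.08, limma adjusted p = 6.4e-04), and all FOXD1null values exceeded the 786-O values. Per kb of merged exons, BST2 averaged 10089 normalized counts in the libraries labelled FOXD1null and 6253 in 786-O, the highest level per kb among the members in both lines, followed by ISG15 at 1022 and 1408. IFITM2, which hinders fusion of viruses in endosomes, was higher by 0.33 on the log2 scale (limma adjusted p = 0.0090), a call lost without 786-O replicate 3 (limma adjusted p = 0.051). IFITM3, its near-identical neighbour, did not pass, with a log2 fold change of -0.10 (limma adjusted p = 0.32). IFITM1 had 11.9, 8.08 and 5.83 normalized counts in the libraries labelled FOXD1null and 14.5, 31.7 and 15.6 in 786-O and did not pass (log2 fold change -1.13, limma adjusted p = 0.069). Because these 3 genes are close copies, the division of reads among them is uncertain.

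Among the other antiviral effectors, 2 of 6 were lower and none was higher, against 17.1% and 16.3% of all genes tested. SAMD9, a restriction factor for poxviruses, had 972, 996 and 1056 normalized counts in the libraries labelled FOXD1null and 1715, 1765 and 1720 in 786-O (log2 fold change -0.78, SE 0.07, limma adjusted p = 1.3e-04). Its adjacent paralog SAMD9L had 652, 900 and 877 normalized counts in the libraries labelled FOXD1null and 886, 823 and 902 in 786-O, with overlap of the lines (log2 fold change -0.12, limma adjusted p = 0.52). Whether the paralogs differed from each other was not tested. CMPK2, a mitochondrial nucleotide kinase, had 20.5, 13.1 and 11.7 normalized counts in the libraries labelled FOXD1null and 34.6, 51.7 and 35.0 in 786-O (log2 fold change -1.38, limma adjusted p = 0.0086). It shares 351 exon bases with RSAD2 on the other strand. The GTPases MX1 and MX2 and the nuclease ISG20 did not pass, with log2 fold changes of -0.40, -0.28 and -0.23. For MX2, 786-O replicate 2 held 43.5 normalized counts against 20.1 and 19.3 in the other 786-O libraries, and without it the log2 fold change was 0.09, with -0.24 for MX1 and -0.02 for ISG20.

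Nuclear and ADP-ribosylation proteins were lower for 2 of 3 genes, against 17.1% of all genes tested. SP110, a nuclear body protein, had 111, 99.0 and 99.1 normalized counts in the libraries labelled FOXD1null, against 221, 260 and 270 in 786-O (log2 fold change -1.27, SE 0.12, limma adjusted p = 2.3e-04). An antisense transcript covers 17.8% of its exon bases. PARP9, which works with the ubiquitin ligase DTX3L, had 817, 1006 and 991 normalized counts in the libraries labelled FOXD1null and 1210, 1320 and 1296 in 786-O (log2 fold change -0.45, SE 0.10, limma adjusted p = 0.0084). PARP14, an ADP-ribosyltransferase, had 3041, 4348 and 4269 normalized counts in the libraries labelled FOXD1null and 4225, 4168 and 4228 in 786-O and did not pass (log2 fold change -0.13, limma adjusted p = 0.47). Among the FOXD1null libraries, replicate 1 lay farthest from the 786-O values.

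FOXD1null replicate 1 decided whether several members passed. Without it, 15 members were higher and 20 lower, and all 24 calls made with every library remained in the same direction. The 11 further calls were DHX58, IFI16, IFIH1, IRF3, IRF7, OAS3 and XAF1, which were higher, and IFIT5, IFITM1, IFITM3 and ISG15, which were lower. The log2 fold changes without it were 0.35 for DHX58, 0.30 for IFIH1, 0.23 for OAS3 and 0.66 for XAF1, each over 1.5 times the value with every library, and 0.14 for IRF3, which was smaller (limma adjusted p = 0.0090, 0.0023, 2.7e-04, 4.2e-04 and 0.013). For IFI16, IRF7, IFIT5, IFITM1 and IFITM3 they were 0.32, 0.52, -0.23, -1.37 and -0.14 (limma adjusted p = 1.6e-04, 0.0016, 0.0069, 0.015 and 0.015). Over all genes the counts without it were 4623 higher and 4673 lower of 16847 tested. With every library they were 2751 and 2888 of 16901, so the rise was not particular to the members. Replicate 1 was the lowest FOXD1null library for 23 of the 45 members and the highest for 17. Among the 21 members that did not pass, these numbers were 14 and 5. Among the 16 lower members, replicate 1 was the highest FOXD1null library for 11. These positions were not counted over all genes, so they cannot be read as particular to the members. Replicate 1 also adds to the spread that can keep a gene from passing, so the 14 and 5 are not independent of that grouping. Without 786-O replicate 3, 5 members were higher and 14 lower, and the counts over all genes were also smaller, at 1808 and 1819.

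**Figure D4:**
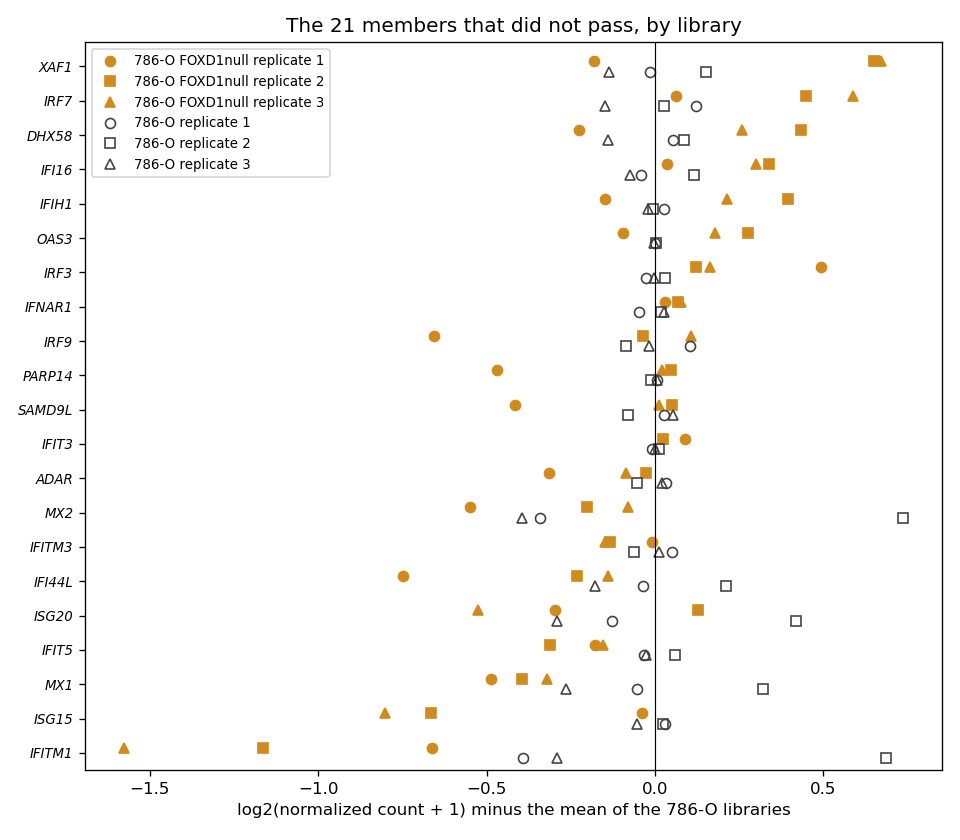
Log2(normalized count + 1) of each library minus the mean of the 786-O libraries (horizontal axis) for the 21 members that did not pass, with 786-O FOXD1null libraries filled and 786-O libraries open, the symbol marking the replicate. For XAF1, DHX58, IFIH1 and OAS3, FOXD1null replicate 1 lies left of the 786-O libraries and replicates 2 and 3 lie right of them, and for ISG15 replicate 1 lies among the 786-O libraries.

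Of 77 other genes of the pathway listed beside the members, 63 were in the table, of which 11 were higher (17.5%, against 16.3% of all genes), 22 were lower (34.9%, against 17.1%) and 30 failed the test. Their median log2 fold change was -0.08, and the difference of these shares from all genes was not tested. The 10 listed interferon ligands, ZBP1, RTP4, CXCL10 and CXCL11 were not among its rows and are not analysed here. Of the genes that carry the signal, STAT2 had 1150, 1463 and 1496 normalized counts in the libraries labelled FOXD1null and 1983, 1868 and 1800 in 786-O (log2 fold change -0.47, SE 0.11, limma adjusted p = 0.011), a call lost without 786-O replicate 1 (limma adjusted p = 0.058). This partner of IRF9 was therefore lower, while the receptor chains IFNAR2 and IFNGR2 were higher. The kinases JAK1 and TYK2 did not pass, with log2 fold changes of -0.06 (limma adjusted p = 0.65) and 0.22 (limma adjusted p = 0.0502). For TYK2 the lines did not overlap, and it passed in 5 of 15 alternative settings. These included DESeq2 (DESeq2 adjusted p = 0.031) and limma without FOXD1null replicate 1 (limma adjusted p = 1.6e-05).

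Beyond these, 8 of the 63 genes passed and changed by 1 or more on the log2 scale. Of them 7 were lower (11.1%, against 5.22% of all genes) and 1 was higher (1.59%, against 3.21%). The difference of these shares was not tested. IFNLR1, the receptor chain for interferon lambda, had 89.5, 48.5 and 58.3 normalized counts in the libraries labelled FOXD1null and 191, 151 and 133 in 786-O (log2 fold change -1.30, limma adjusted p = 0.0043), unlike the chains for the type I and type II interferons. TLR3, the endosomal sensor of double-stranded RNA, had 240, 288 and 291 normalized counts in the libraries labelled FOXD1null and 584, 570 and 582 in 786-O (log2 fold change -1.09, limma adjusted p = 1.7e-04). RSAD2 (viperin), the partner of CMPK2 at the same locus, had 12.9, 0 and 3.88 normalized counts in the libraries labelled FOXD1null and 49.1, 70.7 and 62.6 in 786-O. Its log2 fold change of -3.90 (limma adjusted p = 0.0077) moved between -4.79 and -2.81 with the settings, as few reads stood in one line. LGALS9, a galectin, had 9.70, 0 and 0.971 normalized counts in the libraries labelled FOXD1null and 43.5, 34.5 and 43.2 in 786-O (log2 fold change -3.90, limma adjusted p = 0.0064; -4.98 to -2.57 over the settings). In these 2 genes, IFNLR1 and LY6E, FOXD1null replicate 1 held the most counts of its line. In TLR3, CCL5 and EPSTI1 it did not. The same held for 11 of the 16 lower members, HERC5 among them, as for these 2 genes. Where replicate 1 lay was not counted over all genes. The chemokine CCL5, the surface protein LY6E and EPSTI1 were lower, with log2 fold changes of -1.12, -1.07 and -1.59 (limma adjusted p = 0.0032, 2.5e-04 and 0.015). The guanylate-binding protein GBP5 was higher, with 7.55, 33.3 and 17.5 normalized counts in the libraries labelled FOXD1null and 1.12, 1.81 and 3.68 in 786-O (log2 fold change 2.54, limma adjusted p = 0.014), a call lost without 786-O replicate 1 (limma adjusted p = 0.055).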

How the data were processed

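Per the labels, the authors used Trimmomatic 0.36 for trimming, STAR 2.5.2b for alignment to hg38, featureCounts for read counts per gene and DESeq2 for the comparison. Their annotation release and whether strand was used were not given in the sources used here. In the deposited table, values per library are normalized counts, a signal in which the authors divided each count by 1 size factor per library. The table also holds the authors' group means, their log2 fold change, p-value and adjusted p-value, and the difference of means, an other value. Those columns of the authors' comparison were not used.

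Here the 6 libraries were grouped by their labels and compared with limma 3.58.1 in R 4.3.3, with a trended prior and without covariates, on log2(normalized count + 1). Genes under a mean of 10 were left out, and 16901 of 16922 were tested. P-values were two-sided, adjusted by Benjamini-Hochberg over all genes tested, with a threshold of 0.05. For low genes, log2 fold changes on this scale differed from those of DESeq2 in both directions. They were smaller in size for OAS2 (-2.45 against -2.79) and larger for RSAD2 (-3.90 against -3.47) and HERC5 (-3.01 against -2.80). Whole reads, recovered from the normalized counts (100% of values lay within 0.001 of a whole read), served edgeR 4.0.16 and DESeq2 1.42.0 as alternatives. Symbols were found for 16747 of 16922 IDs. Positions and exon overlaps came from GENCODE release 44 and promoters from RefSeq. The code of the fit was tried on simulated counts with few changed genes and no library that stood apart. Those conditions differ from these data, so the trial does not bear on the calls. Lists and members were chosen with earlier results of these data known. Every member is accounted for. Values per library are given for receptors, interferon regulatory factors, sensors, and members that passed, changed by 0.5 or more on the log2 scale and had a mean of at least 50, and other members were given values after these had been seen. Other pathway genes are named where they carry the signal or passed and changed by 1 or more, and 1 such gene is not reported here. P-values measure the spread between these libraries, which is not known to come from separate cultures.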

Additional observations from a re-analysis of the deposited data

How the results depend on the processing

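Pseudocounts of 0.5 and 5 and no filter on low values left the 24 calls among the members as they were, as did edgeR on recovered reads, and DESeq2 and limma with the replicate block each added ISG15 (adjusted p = 0.036 and 0.032). With a mean of at least 50, OAS2 and CMPK2 were not tested. With equal library totals the log2 fold changes of all genes moved by a median of -0.09, 2040 genes were higher and 3878 lower, IRF2 was lost, and IFIT5 and ISG15 were added. IFNAR1 and IFIT3 then had log2 fold changes of -0.034 and -0.046. The cause was not tested.

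After the mean of each line was taken off, correlations of same-numbered libraries were -0.25, -0.23 and 0.01. With 3 libraries a line, these cannot show whether replicate numbers paired the samples. The replicate block gave 8 members higher and 17 lower, 2391 and 2489 of all genes, and 11 and 21 of the other pathway genes. Leaving out 1 library at a time gave 5 to 15 members higher, 1801 to 4623 of all genes higher, 1816 to 4673 lower, and 8 to 20 other pathway genes higher. Without both libraries that stood apart, an alternative chosen after the data were seen, 15 members were higher and 19 lower, 24 of 24 calls remained, and 4670 and 4616 of all genes and 21 other pathway genes (higher) passed. Signs turned only for genes that did not pass: when 1 library was left out, the log2 fold change of IRF9 ran from -0.35 to 0.035, SAMD9L from -0.20 to 0.031, PARP14 from -0.22 to 0.034 and JAK1 from -0.11 to 0.040, each highest without FOXD1null replicate 1, and MX2 from -0.47 to 0.091, highest without 786-O replicate 2. Without both libraries the values were 0.23 for MX2, 0.0098 for ISG20, 0.028 for PARP14 and 0.018 for JAK1. With 3 libraries a line, small changes such as those of IRF2, IFI6 and EIF2AK2 sit near the threshold and depend on single libraries.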
